A study of Homo sapiens with 2 samples.

Results

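The interferon and RNA-sensing response genes are the transcripts through which a cell detects foreign RNA and answers type I interferon. They were examined because an siRNA is itself a short double-stranded RNA, and the question put to the data was whether cells given DEPDC1 siRNA showed an innate RNA response beyond that of cells given NC, which the labels call control. The list held 44 genes, chosen by gene name and by no threshold on their values, and 43 of them were measured, out of 18417 genes in all that had a single-gene probe set. STAT2, a subunit of the interferon-activated transcription factor, was the exception and was not analysed here. Each gene is given by its only single-gene probe set, since none of the 43 had more than 1. Of the 43 measured members, 18 were detected, meaning that the value in at least 1 array was no lower than 4.66 on the log2 scale, the median over every probe set and both arrays. That is 41.9% of the measured members, against 61.6% of all measured genes.

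The cells were Huh-7, a line grown from a human hepatocellular carcinoma, and their total RNA was hybridised to 2 Affymetrix arrays. Cells of one group had received DEPDC1 siRNA, for 72 h by the label, and those of the other NC. The NC label gives no time, and 72 h was assumed for it. Each group was 1 sample on 1 array, so the differences have no replicate check and carry no test or p-value. Both groups had been transfected, so a response that they share does not appear in the difference. The sequence and number of the siRNAs, the nature of NC and the transfection reagent are not given in the sources used here.

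RNA in the cytoplasm is recognised by the helicases RIG-I and MDA5, which signal through the mitochondrial adaptor MAVS, and RNA in endosomes by TLR3. These routes activate the factors IRF3 and IRF7, which switch on interferon beta. Secreted interferon then acts through STAT proteins and IRF9, which bind the interferon-stimulated response element (ISRE) in the promoters of antiviral genes. Hepatocyte lines are used as hosts for hepatitis viruses, and Huh-7 cells are known for weak TLR3 signalling.

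The arrays were first checked against their labels. DEPDC1, the targeted transcript, had a log2 expression of 5.15 in the siRNA array and 7.82 in the NC array, a difference of -2.67 or 6.37-fold lower. All 7 measured hepatocyte markers were detected in at least 1 array, and 6 of the 7 were lower in the siRNA array (median -1.09). The exception was TTR, 2.65-fold higher. At least 2-fold lower were 4 of the 7: AFP 3.92-fold, SERPINA1 3.18-fold, APOB 2.55-fold and TF 2.12-fold. Of all detected genes 0.863% were lower by that much. APOA1 and ALB were 1.64-fold and 1.41-fold lower. Of 9 measured leukocyte markers 3 were detected, and PTPRC, the pan-leukocyte surface protein, lay under the threshold in both arrays. Over all 9 the levels ran up to 7.10 in the siRNA array and 6.83 in the NC array, both in CD14, with a median of 3.81 in each, and LYZ (lysozyme) was 2.30-fold higher in the siRNA array. Neither of the 2 measured markers of plasmacytoid dendritic cells, the professional interferon producers of blood, was detected. Of 10 fibroblast and stellate markers 7 were detected, with a median difference of 0.57, and 3 of them were at least 2-fold higher in the siRNA array: LUM 4.95-fold, FBN1 4.55-fold and COL1A2 2.10-fold. Of all detected genes 1.94% were higher by that much. The other detected markers were VIM, 1.48-fold higher, and PDGFRA, COL1A1 and COL3A1, which differed by 0.095, 0.059 and -0.041. The median level of all 10 was 6.04 in the siRNA array and 5.61 in the NC array. Of 5 endothelial markers 1 was detected. The part of these differences in the results below was not tested. In bulk RNA, fewer cells with a transcript and less transcript per cell cannot be told apart.

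The ISRE is the sequence through which most of these genes are known to answer interferon, so it was looked for in the members' promoters. The search used the core of the ISRE, GAAA followed by any 2 bases and GAAA again, on both strands of windows from 250 bases before to 50 bases after each start site (RefSeq, GRCh38.p14). Of the 44 members 35 had such a window, and 23 of the 35 held at least 1 match in a window (65.7%). Among all 27305 genes with windows, 1195 held a match (4.38%), and among all 35116 windows 3.57% did. A match is a description of letters, not a measured site. The 6 windows below were chosen to show the members with a match that differed most between the arrays (EIF2AK2, IFIT5, EPSTI1, TLR3) and 2 textbook interferon targets that hardly differed (ISG15, IFI6). They run 5′ to 3′ on the gene's strand, with the letters of each ISRE core match in capitals.
EIF2AK2 (GRCh38.p14, chr2:37156931-37157230, minus strand): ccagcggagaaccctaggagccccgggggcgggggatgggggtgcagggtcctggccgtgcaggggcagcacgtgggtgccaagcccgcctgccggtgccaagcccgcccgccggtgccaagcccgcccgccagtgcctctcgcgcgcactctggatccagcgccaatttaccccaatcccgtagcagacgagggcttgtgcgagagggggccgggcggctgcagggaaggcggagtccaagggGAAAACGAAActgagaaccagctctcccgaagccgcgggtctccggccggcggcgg
IFIT5 (GRCh38.p14, chr10:89414318-89414617, plus strand): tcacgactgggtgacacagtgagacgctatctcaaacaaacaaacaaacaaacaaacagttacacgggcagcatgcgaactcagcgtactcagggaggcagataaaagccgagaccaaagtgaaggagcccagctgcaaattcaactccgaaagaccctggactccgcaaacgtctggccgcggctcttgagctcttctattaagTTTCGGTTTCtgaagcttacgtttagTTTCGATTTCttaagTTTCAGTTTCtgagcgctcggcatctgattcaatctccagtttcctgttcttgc
EPSTI1 (GRCh38.p14, chr13:42992192-42992491, minus strand): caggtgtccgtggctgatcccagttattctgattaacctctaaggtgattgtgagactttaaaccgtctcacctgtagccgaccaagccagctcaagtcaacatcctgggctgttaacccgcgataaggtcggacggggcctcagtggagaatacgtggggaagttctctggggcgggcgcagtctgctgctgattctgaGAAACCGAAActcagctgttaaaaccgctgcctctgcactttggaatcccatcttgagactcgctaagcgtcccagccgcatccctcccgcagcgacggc
TLR3 (GRCh38.p14, chr4:186068906-186069205, plus strand): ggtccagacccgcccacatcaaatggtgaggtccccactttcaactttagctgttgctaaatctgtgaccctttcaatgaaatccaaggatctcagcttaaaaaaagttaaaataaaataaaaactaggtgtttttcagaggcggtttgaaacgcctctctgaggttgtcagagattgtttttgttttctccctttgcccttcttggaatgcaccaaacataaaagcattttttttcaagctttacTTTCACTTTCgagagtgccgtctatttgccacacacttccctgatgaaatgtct
ISG15 (GRCh38.p14, chr1:1013247-1013546, plus strand): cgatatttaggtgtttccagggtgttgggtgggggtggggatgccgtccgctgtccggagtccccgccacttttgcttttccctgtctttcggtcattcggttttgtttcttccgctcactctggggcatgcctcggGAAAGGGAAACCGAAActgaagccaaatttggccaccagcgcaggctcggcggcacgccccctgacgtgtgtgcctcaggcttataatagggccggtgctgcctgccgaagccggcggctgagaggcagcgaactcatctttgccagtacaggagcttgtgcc
IFI6 (GRCh38.p14, chr1:27672143-27672442, minus strand): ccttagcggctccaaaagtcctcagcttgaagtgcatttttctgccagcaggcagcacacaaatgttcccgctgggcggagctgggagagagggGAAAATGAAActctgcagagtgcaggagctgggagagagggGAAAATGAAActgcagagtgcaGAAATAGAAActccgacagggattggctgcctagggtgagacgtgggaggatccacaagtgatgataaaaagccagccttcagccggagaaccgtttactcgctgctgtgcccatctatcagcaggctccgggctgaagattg
The IFIT5 window held 3 matches, all on the opposite strand and beginning at most 45 bases before the start site. The IFI6 window also held 3, while ISG15 held 2 that overlap. EIF2AK2, EPSTI1 and TLR3 held 1 each, those of EIF2AK2 and TLR3 beginning 6 and 4 bases before the start site.

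The interferon and RNA-sensing genes went both ways between the arrays. Among the 18 detected members, 6 were higher in the siRNA array, 11 (61.1%) were lower and 1 was the same in both. Over all detected genes, 49.9% were higher and 48.1% lower. The median difference of the members (siRNA minus NC, log2) was -0.067, with quartiles of -0.25 and 0.086, against a median of 0.00 and quartiles of -0.18 and 0.21 over all 11352 detected genes. Without regard to sign, the median size of the difference was 0.25 for the members and 0.19 for all detected genes. The sign of the members' median depended on the filter: it was 0.078 over the 11 members above a threshold taken from gene-listed probe sets and 0.19 over the 4 members that passed a filter at the 75th percentile. MX2 was the 1 detected member at least 2-fold higher by measured values, and none was at least 2-fold lower. Among all detected genes, 1.94% were higher by at least 2-fold and 0.863% were lower by that much. At 1.5-fold the counts were the same, 1 higher and 0 lower, against 6.03% and 3.74% of all detected genes. Different probe sets of 1 gene gave differences that spanned a median of 0.087 over 444 genes on the log2 scale. This is a rough gauge of measurement noise and not of variation between replicates. Of the 18 detected members 14 differed by more than that median (77.8%), as did 75.7% of all detected genes. The span was wider for some of the 444 genes, and at a high percentile it was 0.41. Among the detected members, only MX2, EIF2AK2 and IFIT5 differed by more than 0.41. Being beyond the median span therefore does not set a member apart from such noise.

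**Figure D1:**
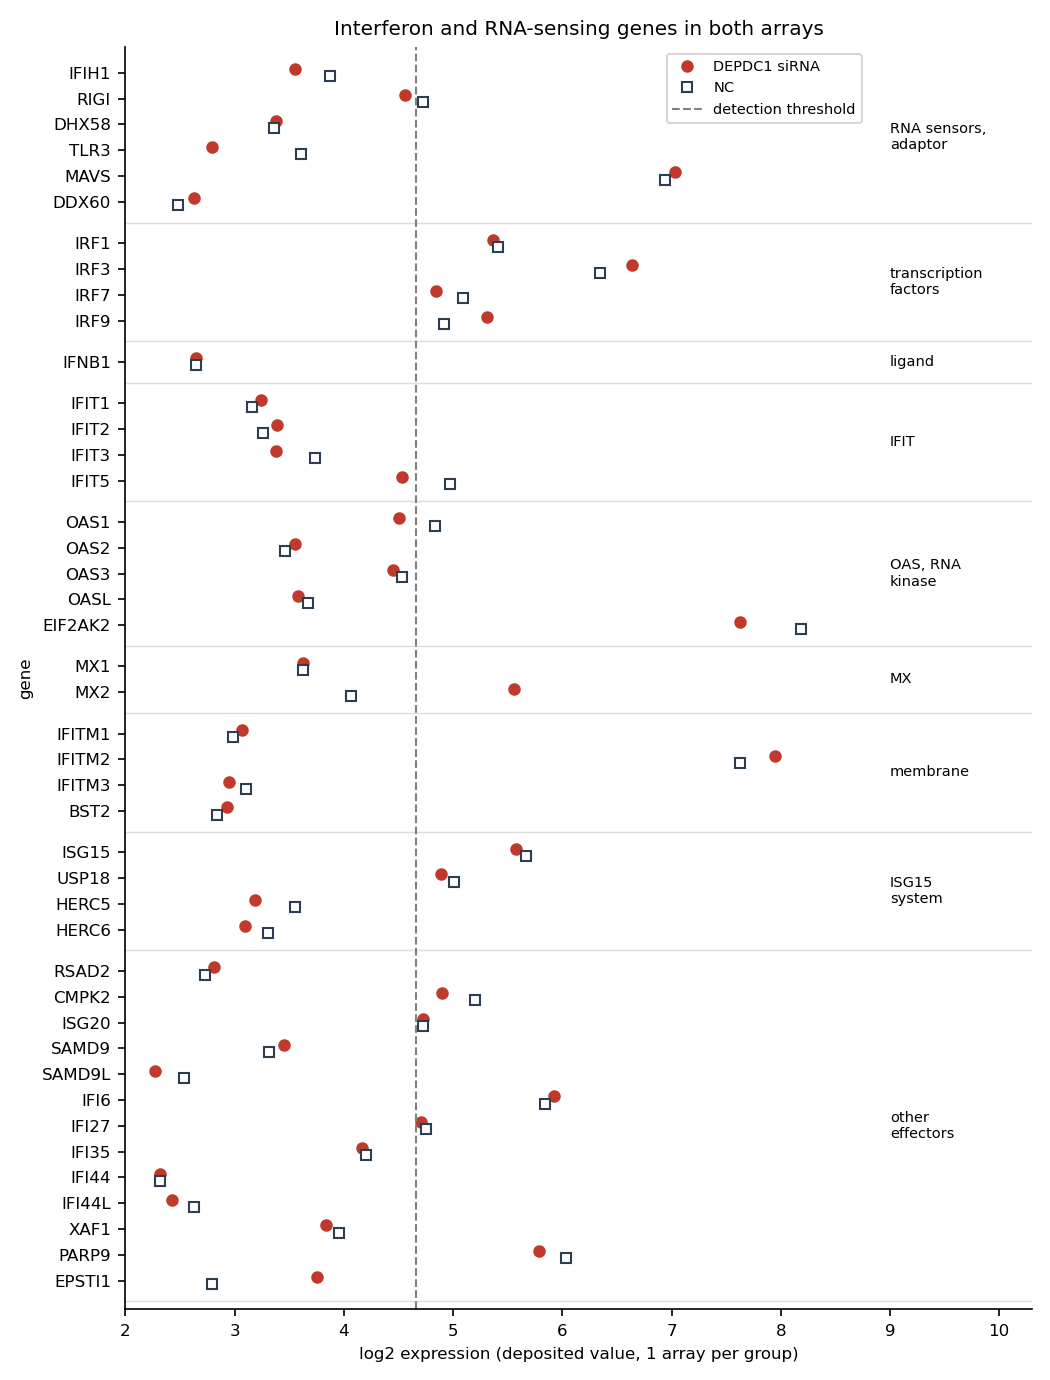
Log2 expression of the 43 measured members (rows, grouped by role) in the DEPDC1 siRNA array (filled circles) and the NC array (open squares), 1 array per group. The dashed line is the detection threshold of 4.66; 25 members lay left of it in both arrays, and the widest gap is that of MX2.

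The RNA sensors were mostly dim. RIGI, which encodes RIG-I (DDX58 in older annotations), had 4.56 in the siRNA array and 4.72 in the NC array, so its siRNA value lay under the threshold. Against the threshold it was at least 1.05-fold lower. IFIH1, which encodes MDA5, had 3.55 in the siRNA array and 3.88 in the NC array, and DHX58, the regulatory helicase LGP2, had 3.38 in the siRNA array and 3.36 in the NC array. DDX60, a helicase linked to RIG-I signalling, had 2.62 in the siRNA array and 2.48 in the NC array. TLR3 had 2.79 in the siRNA array and 3.61 in the NC array, a difference of -0.82 between values that both lay under the threshold. MAVS, the adaptor of both cytoplasmic helicases, was well above the threshold with 7.03 in the siRNA array and 6.94 in the NC array. Among the 6 sensor and adaptor genes, MAVS reached the threshold in both arrays and RIGI in the NC array.

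The 4 measured transcription factors of the pathway were all detected and went both ways. IRF3, the constitutive factor downstream of MAVS, had 6.63 in the siRNA array and 6.35 in the NC array, a difference of 0.29. IRF9, the DNA-binding subunit of the interferon-activated complex, had 5.31 in the siRNA array and 4.92 in the NC array, a difference of 0.39. Among detected members MX2 alone had a higher difference, while EIF2AK2 and IFIT5 differed by more in the other direction. Of all detected genes 12.5% lay at least as high as IRF9. IRF7, the interferon-inducible amplifier of the response, was lower, with 4.85 in the siRNA array and 5.09 in the NC array. IRF1, a factor induced mainly by interferon gamma, had 5.37 in the siRNA array and 5.41 in the NC array. IFNB1, the interferon beta gene itself, was listed at 2.64 in both arrays, identical to every deposited digit and under the threshold.

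The IFIT genes encode tetratricopeptide proteins that bind foreign RNA ends and block translation, and they are among the transcripts most strongly induced by interferon in many cell types. IFIT1 had 3.24 in the siRNA array and 3.16 in the NC array, and IFIT2 had 3.39 in the siRNA array and 3.26 in the NC array. IFIT3 went the other way, with 3.38 in the siRNA array and 3.73 in the NC array. These 3 genes lay under the threshold in both arrays. IFIT5, the remaining member of the family, had 4.53 in the siRNA array and 4.97 in the NC array, at least 1.25-fold lower when the siRNA value is set to the threshold. Its 3 ISRE core matches are shown above.

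Among the genes that act on double-stranded RNA, EIF2AK2 had the lowest difference of all detected members. EIF2AK2 encodes the kinase PKR, which binds double-stranded RNA and halts translation. It had 7.62 in the siRNA array and 8.19 in the NC array, a difference of -0.56 or 1.48-fold lower, and 4.12% of detected genes lay at least as low. The OAS genes encode synthetases whose product activates RNase L. OAS1 had 4.50 in the siRNA array and 4.84 in the NC array, at least 1.13-fold lower. OAS2 (difference 0.092), OAS3 (-0.083) and OASL (-0.085) lay under the threshold in both arrays. Only EIF2AK2 and OAS1 of these 5 genes were detected. With the siRNA 4 of the 5 had lower values, as had 9270 of all 18417 measured genes, and OAS2 went the other way. The differences of OAS3 and OASL were smaller than 0.087, the median span between probe sets of 1 gene.

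MX2 was the member with the largest difference. It encodes a dynamin-like GTPase that blocks nuclear entry of retroviruses. MX2 had 5.56 in the siRNA array and 4.07 in the NC array, a measured difference of 1.49. The NC value lay under the threshold, so the fold is given as at least 1.87-fold higher. With dim values raised to the threshold its difference was 0.90, and no detected member then passed 2-fold. Its neighbour and paralog MX1, the classical marker of type I interferon action, was listed at 3.63 in both arrays with identical digits. BACE2 and FAM3B, the genes on the other side of MX2 on chromosome 21, named after their values were seen, differed by -0.012 and -0.078 and also lay under the threshold.

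**Figure D2:**
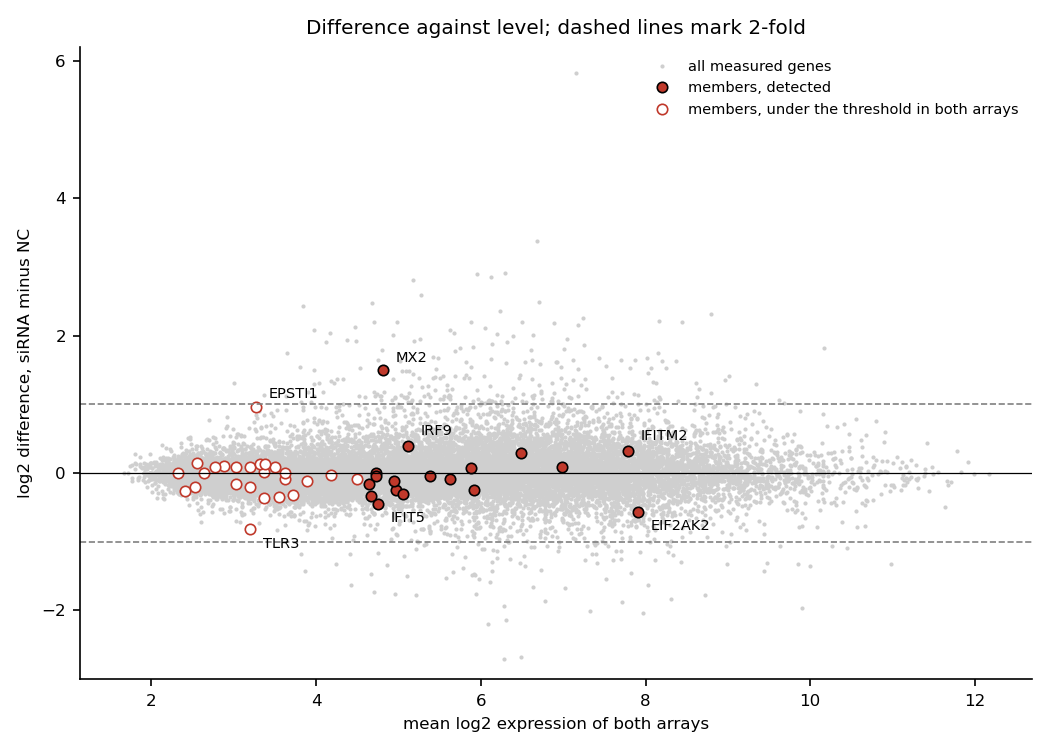
Log2 difference (siRNA minus NC) against the mean log2 expression of both arrays for all 18417 measured genes (grey) and the 43 members (filled, detected; open, under the threshold in both arrays). Dashed lines mark 2-fold; MX2 is the 1 member beyond them, and EPSTI1 (0.97) and TLR3 (-0.82) are the farthest of the open symbols.

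Of 4 membrane-associated restriction factors, 1 was detected. IFITM2, an interferon-induced protein that blocks viral entry at endosomes, had 7.95 in the siRNA array and 7.63 in the NC array, a difference of 0.32. Its relatives IFITM1 (difference 0.088) and IFITM3 (-0.16) lay under the threshold in both arrays. IFITM transcripts are close in sequence, so cross-hybridisation between these probe sets is possible. BST2, the tetherin that holds budding virions at the surface, had 2.93 in the siRNA array and 2.84 in the NC array.

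All 4 genes of the ISG15 system had lower values in the siRNA array, as had 9270 of all 18417 measured genes. Of the 4, only ISG15 and USP18 were detected. ISG15, a ubiquitin-like modifier and early interferon target, had 5.57 in the siRNA array and 5.67 in the NC array. USP18, the protease that removes ISG15 and dampens receptor signalling, had 4.89 in the siRNA array and 5.01 in the NC array. Of all detected genes, 35.4% lay at least as low as ISG15 and 32.0% at least as low as USP18. Another probe set lists USP18 together with USP41P, a related sequence, and gave -0.28, against -0.12 for the probe set of USP18 alone. HERC5, the main ISG15 ligase, differed by -0.37 and HERC6, its relative, by -0.21, both between values under the threshold.

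The remaining antiviral effectors numbered 13, of which 5 were detected. PARP9, a partner of the ubiquitin ligase DTX3L, had 5.79 in the siRNA array and 6.04 in the NC array, a difference of -0.25. CMPK2, a mitochondrial nucleotide kinase, had 4.89 in the siRNA array and 5.20 in the NC array, a difference of -0.31. IFI6, an interferon-induced membrane protein, had 5.92 in the siRNA array and 5.85 in the NC array. These 3 lay above the threshold in both arrays and differed by 1.24-fold at most. IFI27, one of the most interferon-responsive transcripts in blood and liver, had 4.71 in the siRNA array and 4.75 in the NC array. ISG20, an exonuclease that degrades RNA, was listed at 4.73 in both arrays with identical digits.

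The other 8 effectors were under the threshold in both arrays. EPSTI1, an epithelial-stromal interaction gene induced by interferon, stood out among them with 3.76 in the siRNA array and 2.79 in the NC array, a difference of 0.97. RSAD2, which encodes viperin, an enzyme that makes a chain-terminating nucleotide, had 2.81 in the siRNA array and 2.72 in the NC array. SAMD9 and SAMD9L, paralogs that restrict poxviruses, differed by 0.14 and -0.27. IFI44 was listed at 2.32 in both arrays, and its neighbour IFI44L differed by -0.21. IFI35 differed by -0.034, and XAF1, which binds an apoptosis inhibitor, by -0.12.

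Many members sit beside another member in the genome, often a paralog. Taking members whose starts lie within 100 kb of the next member's start in GRCh38.p14, 20 of the measured members fell into 8 groups. Grouping was by distance alone, whether or not the genes are paralogs. Of these 20, 5 were detected and no group held more than 1 of them, so each comparison within a group involves values under the threshold and the directions are given as a description only. In 5 of the 8 groups values went both ways, and in 2 more (MX1 with MX2, IFI44 with IFI44L) 1 gene was identical in both arrays. HERC5 and HERC6 were the 1 group with all values lower, and no group had all values higher. In the IFIT group of 4 genes, 2 were higher and 2 lower, between -0.45 and 0.13. In the IFITM group the range was -0.16 to 0.32, in the group of OAS1, OAS2 and OAS3 -0.34 to 0.092, and for CMPK2 and RSAD2 -0.31 to 0.083.

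The 25 members under the threshold in both arrays were also spread around no difference. Of them 10 were higher in the siRNA array, 12 lower and 3 identical, and their median was 0.00. On arrays, background signal narrows differences at such low levels. In all, 4 of the 43 measured members (IFNB1, MX1, ISG20 and IFI44) had the same value in both arrays to every deposited digit, which is 9.30%, against 886 of the 18417 measured genes (4.81%). These shares are not matched for level. Of the 886 genes, 225 were among the 11352 detected genes and the rest among the 7065 under the threshold. Of the members with identical values, 3 lay under the threshold, and a smaller share of members than of all genes was detected. The cause of such identical pairs was not tested.

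Detected members were more often lower than higher both with and without an ISRE core match. Of the 23, 7 were detected, 1 of them higher in the siRNA array, 5 lower and 1 identical, with a median of -0.094 and a range of -0.56 to 0.078. Of the 11 measured members whose windows held no match, 6 were detected, with a median of -0.10. Among these, RIGI, IRF1, OAS1 and CMPK2 were lower in the siRNA array, and MAVS and IRF9 were higher. The 312 other detected genes with a match had a median of 0.045, 170 being higher and 140 lower, and past 2-fold there were 7 higher and 2 lower. With the longer motif, in which CT follows that core, which 0.322% of all genes hold, 16 of the 35 members with a window had a match. Of the 6 detected members with this longer motif 5 were lower and 1 higher, with a median of -0.17, while of the 20 other detected genes 14 were higher and 6 lower, with a median of 0.19, and none of these 26 was 2-fold different. GAS, the element TTCNNNGAA through which interferon gamma acts, was found in 12 of the 35 members (34.3%), against 9.38% of all genes. IRF1 and IRF9 were among these 12 and held no ISRE core match.

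**Figure D3:**
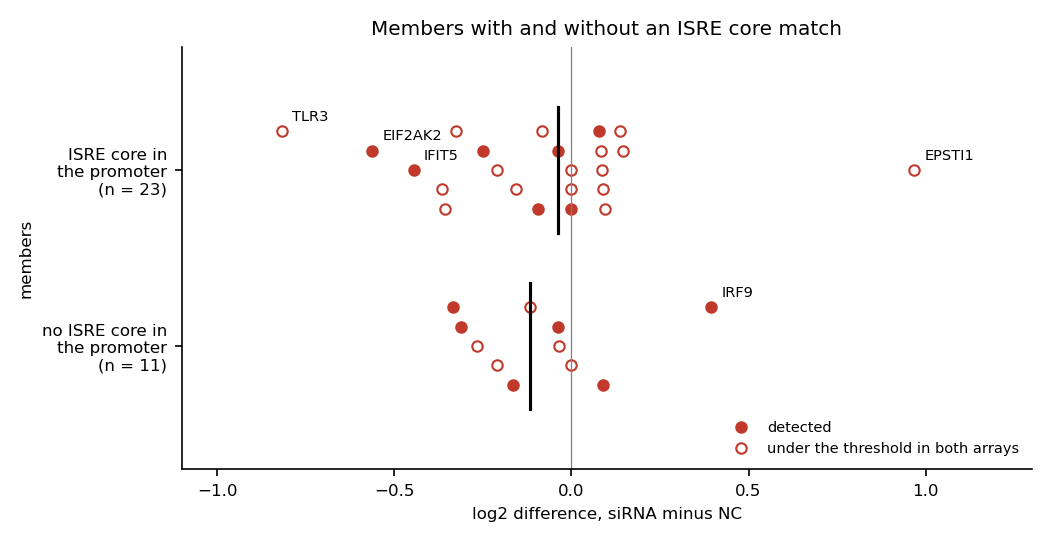
Log2 difference (siRNA minus NC) of the 34 measured members with a promoter window, split by whether the window held an ISRE core match (23 above, 11 below); filled symbols are detected members, open ones lay under the threshold in both arrays, vertical bars are medians over all shown and the vertical offset only separates points. Both rows lie around 0, with medians of -0.039 and -0.12.

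Further genes of the pathway, listed apart from the members, also lay on both sides of no difference. Among 22 detected nucleic acid sensors and adaptors outside the member list, 9 were higher in the siRNA array and 13 lower, none by 2-fold, with a median of -0.092. Over all detected genes, 49.9% were higher and 48.1% lower. DHX33, a helicase reported to sense double-stranded RNA, had 6.29 in the siRNA array and 6.97 in the NC array (1.60-fold lower). CYLD, a deubiquitinase that restrains RIG-I, differed by -0.60, its siRNA value being under the threshold. DHX9 and PRKRA, both binders of double-stranded RNA, differed by -0.34 and -0.23. Receptors and JAK-STAT genes were the 1 pathway list with more higher than lower values, 11 against 6 of 17 detected, and a median of 0.088. STAT3 had 8.30 in the siRNA array and 7.50 in the NC array (1.74-fold higher), IRF2, a repressor of interferon targets, had 5.55 in the siRNA array and 6.35 in the NC array (1.74-fold lower), and none passed 2-fold. IFNGR1, a chain of the interferon gamma receptor, differed by 0.63 and PTPN11, the phosphatase SHP2, by 0.57.

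Interferon-stimulated genes outside the member list were spread on both sides as well. Of 36 detected, 15 were higher and 21 lower, with a median of -0.094, and IRF2 is among the genes that this list shares with the lists above. GBP2, a guanylate-binding GTPase, had 5.41 in the siRNA array and 4.23, under the threshold, in the NC array, and was the 1 gene at least 2-fold higher by measured values (bound at least 1.69-fold). LAMP3, a lysosomal membrane protein, had 4.82 in the siRNA array and 5.85 in the NC array and was the 1 gene at least 2-fold lower (2.05-fold). PARP12, an antiviral ADP-ribosyltransferase, differed by -0.98 and SP110, a nuclear body protein, by 0.82. Among the other interferon ligands, 2 of 15 measured genes were detected, IFNL2 and IFNL3, which are near-identical copies. IFNL2 stood at 4.15 with the siRNA, a value under the threshold, against 4.68 with NC, at least 1.01-fold lower, and IFNL3 differed by 0.12.

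Genes of class I antigen presentation were mostly lower. Of the 10 detected genes of this list 7 were lower in the siRNA array and 3 higher, with a median of -0.33 that moved to -0.10 with the filter at the 75th percentile, and none passed 2-fold. The share of lower genes was 70%, against 48.1% of all detected genes. ERAP1, an aminopeptidase that trims peptides in the endoplasmic reticulum, had 6.75 in the siRNA array and 7.32 in the NC array. TAP2, a subunit of the peptide transporter, and PSMB9, an immunoproteasome subunit, each had 1 value under the threshold and were at least 1.24-fold and 1.33-fold lower. CALR, the chaperone calreticulin, was the highest, with 10.66 in the siRNA array and 9.99 in the NC array. Of the 20 genes of this list, 13 were measured.

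**Figure D4:**
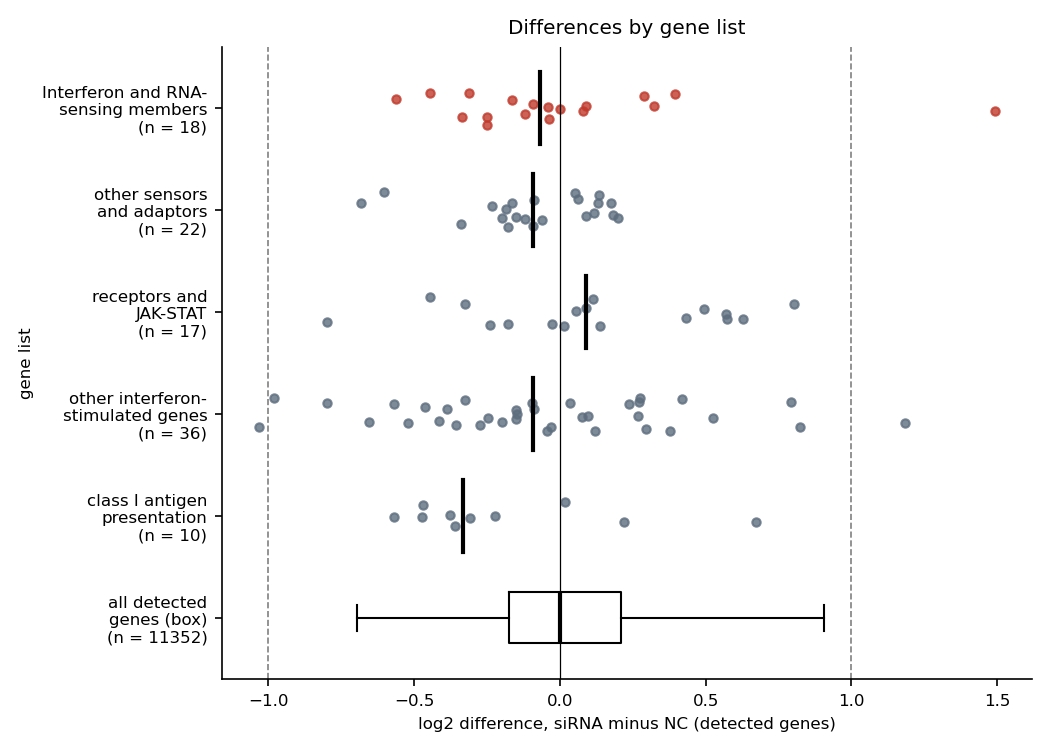
Log2 difference (siRNA minus NC) of detected genes in the member list (18 genes, red) and 4 further pathway lists (grey), with black bars at the list medians; vertical offsets only separate points. The box shows the quartiles of all 11352 detected genes with whiskers at the 2.5th and 97.5th percentiles; MX2 at 1.49 is the 1 member beyond the dashed 2-fold lines.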

How the data were processed

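Total RNA was measured on 2 arrays, 1 for each transfection. The authors deposited a table of 33297 probe sets with a value for each array. Its unit is unstated, and the deposited values were taken as log2 expression because they ran from 1.39 to 12.7. The submitters' processing notes name Transcriptome Analysis Console 3.0 and Affymetrix Expression Console. Background correction, normalization and summary method are not given in the sources used here. Once sorted, the columns differed nowhere by more than 0.0997, and no further scaling was applied. Scanner intensities were not analysed here, and the number of arrays limits the precision.

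Gene names came from GEO's platform annotation (19460 with 1 gene, 1754 with several, 12083 with none listed), and symbols were updated through Entrez identifiers against RefSeq GRCh38.p14 (19429 matched). Positions are printed for the RefSeq promoter windows only, since no source used here names the build of the array's annotation. Where a gene had several single-gene probe sets (769 genes), the highest by mean value stood for it. The difference is siRNA minus NC. Where 1 value lay under the detection threshold of 4.66, the fold is a bound against it, and where both did, no fold is given. The threshold is a convention, not a measured background. Pathway lists were described by counts and medians. Named genes outside the members are up to 4 detected genes of each list with the largest absolute difference, and others are said to be named after their values were seen. The members and lists were chosen with earlier results of these data known. The counting and the motif search were tested on simulated data. Computation used Python 3.11.15 and pandas 2.3.3. Alternatives covered the detection filter, normalization between arrays, the rule for several probe sets, values under the threshold, the list summary and the motif.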

Additional observations from a re-analysis of the deposited data

How the results depend on the processing

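The count of members at least 2-fold higher, 1 in the main setting (MX2), was 0 with the filter at the 75th percentile of all probe sets, which left 4 members, and 0 where dim values were raised to the threshold, where the difference of MX2 was 0.90. It was 0 at least 2-fold lower under every alternative run. At 1.5-fold, 2 members were higher and 1 lower without the filter, since EPSTI1 and TLR3 then enter, and 0 were higher at the 75th percentile. The median over detected members (-0.067) was 0.19 at the 75th percentile and 0.078 over the 11 members left by a threshold from gene-listed probe sets, so its sign depends on the filter. The median of members with an ISRE core match was -0.56 at the 75th percentile, where EIF2AK2 alone was left. Over all genes, 137 were at least 2-fold higher at the 75th percentile, against 220. The list of class I antigen presentation had a median of -0.22 both without the filter and with the threshold from gene-listed probe sets, -0.10 at the 75th percentile, and a mean of -0.19. Interferon ligands had a median of -0.21 in the main setting, over only 2 detected genes, and 0.00 without the filter. The value was 0.049 with values raised and 0.12 with the threshold from gene-listed probe sets, which is the difference of IFNL3 alone. Other interferon-stimulated genes had 0.00 without the filter. Of 172 recomputed single-member differences, 151 moved by less than 0.087 and 21, all with values raised to the threshold, by more. No probe set lists the 1 unmeasured member among several genes, so that alternative gave no value. No paired analysis was possible because each group has 1 array. Without replicates and scanner backgrounds, small differences of dim genes cannot be told from noise.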

Other observations

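Outside the member list, 9 detected genes with an ISRE core match in a promoter window were at least 2-fold different by measured values, all named after their values were seen. Of these 7 were higher in the siRNA array and 2 lower, which is 2.24% and 0.641% of the 312 such genes and close to the 1.94% and 0.863% of all detected genes, so nothing particular to the motif is read from them. None of the 9 is a member of the further interferon lists. EDN1, the peptide endothelin 1, had 7.95 in the siRNA array and 5.46 in the NC array. VNN2, a surface pantetheinase relative, had 6.57 in the siRNA array and 4.79 in the NC array, and SATB1, a chromatin organiser, 7.11 in the siRNA array and 5.50 in the NC array. SLC7A7, an amino acid transporter, was 2.89-fold higher, EMP3 2.42-fold, LTBP1, which binds latent TGF-beta, 2.23-fold, and TSPAN8 at least 4.01-fold higher. CREG1, a secreted glycoprotein, was 2.26-fold lower and the chemokine receptor CCR6 had 3.61 in the siRNA array, a value below detection, and 5.24 in the NC array. Genes with several windows were searched in each, which gives them more room for a match.

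Beside EPSTI1 on chromosome 13, its nearest measured neighbours FAM216B and DNAJC15 differed by 0.085 and 0.088. EPSTI1 and FAM216B lay under the threshold in both arrays. ENOX1, a further step away, had 6.82 in the siRNA array and 5.70 in the NC array. These neighbours are named after their values were seen.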
